A study of Homo sapiens with 4 samples.

Results

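The genes described here encode the enzymes and transporters that take up glucose, break it down to pyruvate, turn pyruvate into lactate or pass it to pyruvate dehydrogenase. A list of 36 genes was matched by gene symbol to a table of transcript levels in clusters of A549 cells, a line derived from a human lung adenocarcinoma, and all 36 were among its 16371 genes. RNA was sequenced from A549 cell clusters carrying a construct against DUSP23 (shDUSP23, 2 libraries) and from A549 cell clusters carrying the construct labelled shMock (2 libraries). All sample titles also carry the suffix SUS, and the labels do not say what it means. The name shDUSP23 denotes a short hairpin RNA, which lowers the messenger RNA it matches, and DUSP23 encodes a small dual-specificity phosphatase. Both groups are derived from a single cell line, and the sources used here do not give the hairpin sequence, the number of hairpins or the number of clones. The labels do not say whether the libraries of a group came from separate cultures, so every p-value below measures only the spread between these libraries.

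Glycolysis is run by families of isoenzymes, proteins from different genes that catalyse the same step with different affinity, regulation or tissue distribution. Glucose enters through facilitative transporters and is trapped by hexokinases. Phosphofructokinase commits the sugar to breakdown and is stimulated by fructose 2,6-bisphosphate, while the later steps yield ATP and pyruvate. Pyruvate is either reduced to lactate, which leaves the cell through monocarboxylate transporters, or oxidised by the pyruvate dehydrogenase complex, which the pyruvate dehydrogenase kinases switch off. Many tumour cells turn glucose into lactate even when oxygen is present.

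Levels are FPKM, fragment counts divided by transcript length and by library depth, as deposited by the authors for each transcript and summed here per gene. The steps in low values gave about 26996200 and 42235200 fragments for the shDUSP23 libraries and 21272800 and 25242600 for the shMock libraries, and the lowest value of any member rested on about 139 fragments. Transcripts listed without any signal numbered 4814 and 9946 in the shDUSP23 libraries and 2930 and 4334 in the shMock libraries. By these estimated totals the library with the most fragments had the most such transcripts, and the reason was not tested. DUSP23 itself was at 1.71 and 2.71 FPKM in shDUSP23 and 29.96 and 35.9 FPKM in shMock (log2 fold change -3.64, SE 0.22; limma, Benjamini-Hochberg adjusted p = 3.12e-05). Of the 5 epithelial markers checked all had values, summed to 1634 and 1716 FPKM in shDUSP23 and 2154 and 2111 FPKM in shMock. Of 6 leukocyte markers CD68 and CD14 had values, summed to 95.9 and 132 FPKM in shDUSP23 and 29.1 and 31.5 FPKM in shMock, and of 5 fibroblast markers COL1A1 and PDGFRB had values, summed to 4.19 and 4.75 FPKM in shDUSP23 and 2.96 and 2.51 FPKM in shMock. None of the 4 endothelial or 3 erythroid markers had a value, and neither did PTPRC, the pan-leukocyte gene. The part of CD68 and CD14 in the results below was not tested. In bulk samples like these, fewer cells of a type and less RNA per cell cannot be told apart.

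The shDUSP23 clusters had more messenger RNA for the entry of glucose, for hexokinases and for the lactate exporter SLC16A3. At the deposited scale they had less for most enzymes from glyceraldehyde 3-phosphate to lactate and for both subunits of pyruvate dehydrogenase E1. Between glyceraldehyde 3-phosphate and lactate, PGK1 and LDHB alone stayed lower under all alternatives run, and ENO2 and ENO3 rose. GAPDH, ENO1 and LDHA lost their calls under quantile normalization, and PGAM1 lost its call with equal sums. All 36 members passed the filter of a mean of 1 FPKM. At a Benjamini-Hochberg adjusted p under 0.05 (limma on log2 of FPKM + 0.5, two-sided), 11 members were higher and 14 lower in shDUSP23, and 11 were not called. The 25 called members are 69.4% of the 36, against a background of 45.3% of 13691 tested genes. The higher members are 30.6%, against 23.1% of all tested genes, and the lower members are 38.9%, against 22.2%. In 30 members, or 83.3%, the 2 groups did not overlap, against 75.5% of all tested genes. A change of at least 2-fold, past 1 on the log2 scale, was met by 8 of the higher and 5 of the lower members. The share of all tested genes with a change of that size was not counted, so these counts have no background. The members had a median log2 fold change of -0.13 and all tested genes one of 0.03.

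**Figure D1:**
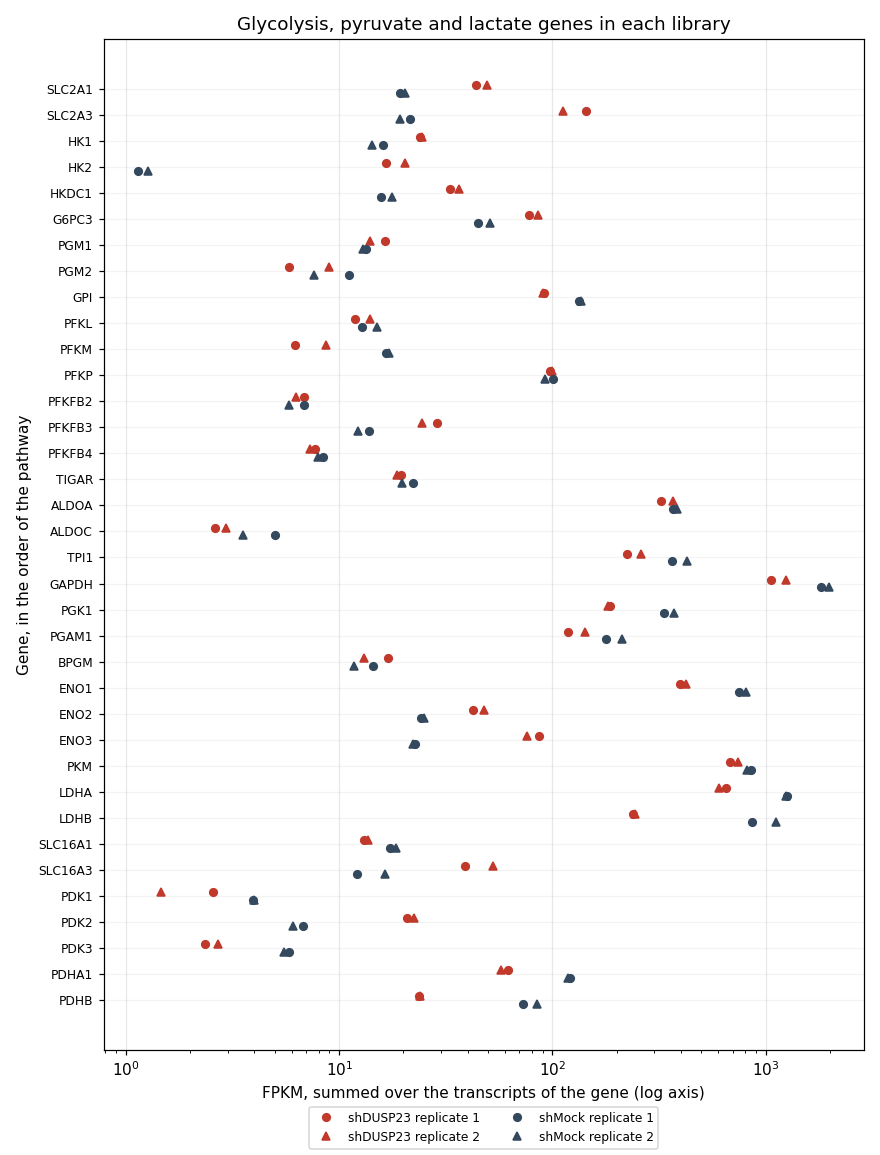
FPKM of each of the 36 genes in each library (log axis), in pathway order from glucose transport at the top to pyruvate dehydrogenase at the bottom; red marks are shDUSP23, dark marks shMock, circles replicate 1 and triangles replicate 2. HK2 shows the widest gap upward, with shDUSP23 at 16.5 and 20.4 FPKM and shMock at 1.14 and 1.27 FPKM, and LDHB the widest gap downward.

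The direction of change went with the level of the gene. Of the 10 members that averaged at least 100 FPKM across the 4 libraries, 0 were higher and 8 lower, while among 683 genes at that level 21.8% were higher and 52.9% lower. Of the 26 members under 100 FPKM, 11 were higher and 6 lower, against 23.2% and 20.6% of 13008 genes. Abundant genes as a whole were thus lower in shDUSP23, with a median log2 fold change of -1.13 among the 126 genes above 512 FPKM. GAPDH, LDHA and ENO1 lay within the middle 50% of such genes, LDHB lay below it, and PKM lay above it.

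**Figure D2:**
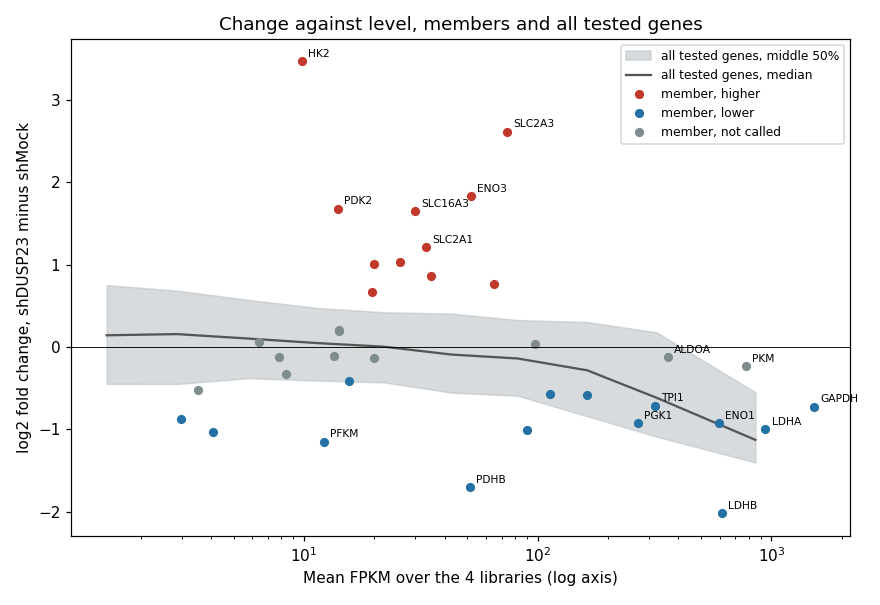
Log2 fold change, shDUSP23 minus shMock, against the mean FPKM over the 4 libraries (log axis) for the 36 members (points, coloured by call), over the median (line) and the middle 50% (grey band) of all tested genes at the same level. The 11 members called higher lie above the band, as does PKM, which was not called, and LDHB, PDHB, PDHA1, PFKM, PDK1 and PDK3 are the called members below it.

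Both glucose transporters of the list rose. SLC2A1 encodes GLUT1, the transporter of basal glucose uptake in most cells, and lies at chr1:42925353-42958868 of GRCh38 on the minus strand. Its level was 43.8 and 49.2 FPKM in shDUSP23 and 19.3 and 20.3 FPKM in shMock. The log2 fold change of SLC2A1 was 1.21 (SE 0.13; limma, adjusted p = 0.00025). SLC2A3, at chr12:7919230-7936187 on the minus strand, encodes GLUT3, a transporter of high affinity best known from neurons. SLC2A3 stood at 143 and 112 FPKM in shDUSP23, against 21.4 and 19.3 FPKM in shMock, a log2 fold change of 2.61 (SE 0.15; limma, adjusted p = 3.12e-05). All shDUSP23 values of these transporters lay above all shMock values, with the widest spread between replicates in SLC2A3 of shDUSP23. The processed copy SLC2A3P1 was at 1.51 and 0.196 FPKM in shDUSP23 and 0 and 3.66 FPKM in shMock, low beside SLC2A3 itself.

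All hexokinases of the list rose, HK2 by far the most. HK2, at chr2:74834127-74893359 on the plus strand, encodes the hexokinase of muscle and of many tumours that binds to mitochondria. HK2 was at 16.5 and 20.4 FPKM in shDUSP23 and 1.14 and 1.27 FPKM in shMock, a difference of 15.3 times by the group means of 18.4 ± 2.75 FPKM in shDUSP23 and 1.21 ± 0.0904 FPKM in shMock (SD, n = 2 each). The log2 fold change of HK2 was 3.47 (SE 0.21; limma, adjusted p = 3.12e-05), which the pseudocount pulls toward 0 because the shMock level is low. HK1, the hexokinase of most tissues, was at 24.01 and 24.3 FPKM in shDUSP23 and 16.00 and 14.2 FPKM in shMock (log2 fold change 0.66, SE 0.14). Without shMock replicate 2, HK1 was no longer called (limma, log2 fold change 0.58, adjusted p = 0.0572, with adjusted p from 0.000723 to 0.0572 over all alternatives). HKDC1, a hexokinase-like enzyme, rose too, with 32.99 and 36.5 FPKM in shDUSP23 and 15.6 and 17.7 FPKM in shMock (log2 fold change 1.04, SE 0.14). G6PC3, the widely expressed glucose 6-phosphatase that works against the hexokinases, was higher as well, at 77.9 and 85.4 FPKM in shDUSP23 and 44.8 and 50.96 FPKM in shMock (log2 fold change 0.77, SE 0.13).

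The bases before the start of HK2 are shown because HK2 changed the most, together with those of SLC16A3, another gene that rose, and of PDHB and LDHB, which fell the most. Each run is the 250 bases before the start of the gene in RefSeq on GRCh38.p14, 5′ to 3′ on the strand of the gene, and the start of the transcript with the highest level in the table coincides with it. Capitals mark the letters ACGTG, or CACGT where the match is on the other strand, which hold the core that hypoxia-inducible factors and several helix-loop-helix factors are known to bind.
HK2 (chr2:74833877-74834126, plus strand): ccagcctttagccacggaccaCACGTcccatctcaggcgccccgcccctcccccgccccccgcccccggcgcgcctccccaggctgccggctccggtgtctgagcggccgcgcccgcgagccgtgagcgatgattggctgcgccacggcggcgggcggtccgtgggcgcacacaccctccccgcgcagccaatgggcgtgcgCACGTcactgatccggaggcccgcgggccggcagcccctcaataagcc
SLC16A3 (chr17:82228792-82229041, plus strand): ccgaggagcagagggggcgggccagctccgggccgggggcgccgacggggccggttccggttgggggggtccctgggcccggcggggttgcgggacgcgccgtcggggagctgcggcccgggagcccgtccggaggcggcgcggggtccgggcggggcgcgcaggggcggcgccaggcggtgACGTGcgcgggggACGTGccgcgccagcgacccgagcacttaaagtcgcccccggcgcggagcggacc
PDHB (chr3:58433833-58434082, minus strand): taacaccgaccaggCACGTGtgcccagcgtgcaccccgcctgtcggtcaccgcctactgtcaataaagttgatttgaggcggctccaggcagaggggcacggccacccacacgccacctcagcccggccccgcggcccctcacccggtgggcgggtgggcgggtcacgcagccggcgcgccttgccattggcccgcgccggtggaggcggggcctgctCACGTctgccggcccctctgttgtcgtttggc
LDHB (chr12:21657843-21658092, minus strand): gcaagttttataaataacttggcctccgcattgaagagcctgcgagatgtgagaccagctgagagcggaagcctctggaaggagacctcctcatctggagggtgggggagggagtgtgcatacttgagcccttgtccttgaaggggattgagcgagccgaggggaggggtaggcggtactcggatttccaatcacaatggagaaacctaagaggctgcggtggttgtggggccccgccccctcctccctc

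HK2, SLC16A3 and PDHB each hold 2 matches and LDHB holds none in this window. ENO3 and PDK2 rose more than SLC16A3 (log2 fold changes 1.83 and 1.68, against 1.65), and their windows, not shown, hold 0 matches. A RefSeq window was found for 33 of the 36 members, all but SLC2A3, PFKFB2 and SLC16A1. The motif, with overlapping matches on both strands counted once, was in 16 of the 33, or 48.5%, and in 18.5% of all 35116 RefSeq windows. The windows of the members had a GC content of 45.2% (PFKM) to 83.2% (SLC16A3). The RefSeq windows were not matched to them in GC content or expression, and the part of base composition in this difference was not tested. Matches were in 5 of 10 members called higher, in 6 of 13 called lower and in 5 of 10 not called. In 24 of the 33 the RefSeq start lay within 100 bases of the start of the leading transcript in the table. A match is a string of letters, not a measured site.

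Between glucose 6-phosphate and fructose 1,6-bisphosphate GPI and PFKM were the called genes. PGM1 and PGM2, the phosphoglucomutases that link glycolysis to glycogen, were not called (log2 fold changes 0.21, SE 0.16, and -0.33, SE 0.25). GPI, which turns glucose 6-phosphate into fructose 6-phosphate, fell to 90.98 and 90.3 FPKM in shDUSP23, against 133 and 137 FPKM in shMock (log2 fold change -0.57, SE 0.11). PFKP, the platelet type of phosphofructokinase and the most abundant here, was at 97.8 and 99.6 FPKM in shDUSP23 and 100.2 and 92.3 FPKM in shMock. PFKL, the liver type, was at 11.9 and 13.96 FPKM in shDUSP23 and 12.9 and 15.02 FPKM in shMock, and neither of these passed the test. PFKM, the muscle type, fell, with 6.20 and 8.63 FPKM in shDUSP23 and 16.6 and 17.04 FPKM in shMock (log2 fold change -1.15, SE 0.19; limma, adjusted p = 0.00174). PFKM overlaps SENP1 on the other strand, which was at 18.1 and 17.7 FPKM in shDUSP23 and 15.01 and 11.2 FPKM in shMock; the sources used here do not give the strandedness of the libraries, so reads from the shared stretch cannot be told apart. The same holds for TPI1 and SPSB2, with SPSB2 at 19.6 and 18.5 FPKM in shDUSP23 and 13.2 and 15.2 FPKM in shMock.

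Of the genes that set fructose 2,6-bisphosphate, the activator of phosphofructokinase, PFKFB3 alone was called. PFKFB3, whose enzyme makes far more of this activator than it breaks down, was at 28.9 and 24.5 FPKM in shDUSP23 and 13.8 and 12.2 FPKM in shMock (log2 fold change 1.01, SE 0.15; limma, adjusted p = 0.00119). Both shDUSP23 libraries lay above both shMock libraries. Its relatives PFKFB2 and PFKFB4 were at 6.30 to 7.71 FPKM in shDUSP23 and 5.80 to 8.42 FPKM in shMock. TIGAR, a phosphatase that degrades fructose 2,6-bisphosphate, was at 19.5 and 18.7 FPKM in shDUSP23 and 22.2 and 19.8 FPKM in shMock. The log2 fold changes of these 3 genes ran from -0.13 to 0.06, with SE from 0.14 to 0.19.

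The enzymes that split the sugar and carry it to 2-phosphoglycerate were mostly lower. ALDOA, the main aldolase, did not pass the test, at 325 and 366 FPKM in shDUSP23 and 366 and 386 FPKM in shMock (log2 fold change -0.12, SE 0.12). ALDOC, the brain type, was low throughout and not called (log2 fold change -0.52, SE 0.25). TPI1, which interconverts the triose phosphates, fell to 223 and 260.2 FPKM in shDUSP23, against 363 and 428 FPKM in shMock (log2 fold change -0.71, SE 0.13). GAPDH, the oxidising step and a common reference gene in expression assays, was at 1061 and 1241 FPKM in shDUSP23 and 1818 and 1983 FPKM in shMock (log2 fold change -0.73, SE 0.14; limma, adjusted p = 0.00357), a fall that turned to 0.10 under quantile normalization. No member was more abundant, and the groups did not overlap. PGK1, the first step that yields ATP, had 187 and 182 FPKM in shDUSP23 and 334 and 370.4 FPKM in shMock (log2 fold change -0.93, SE 0.11). PGAM1, the phosphoglycerate mutase, had 118 and 142 FPKM in shDUSP23 and 178 and 211 FPKM in shMock (log2 fold change -0.58, SE 0.14). BPGM, which makes 2,3-bisphosphoglycerate and is best known from red cells, was not called (log2 fold change 0.19, SE 0.18).
Some of these calls depend on 1 library or on the scaling. Without shDUSP23 replicate 1 the calls of GAPDH (limma, log2 fold change -0.61, adjusted p = 0.103) and PGAM1 (limma, log2 fold change -0.45, adjusted p = 0.0544) were lost, and PGAM1 was also lost without shMock replicate 2 (log2 fold change -0.45, limma adjusted p = 0.0612). TPI1 lost its call under quantile normalization (limma, log2 fold change -0.27, adjusted p = 0.0809, the highest over all alternatives). Over all alternatives the limma adjusted p ranged from 1.95e-05 to 0.503 for GAPDH and from 0.000366 to 0.133 for PGAM1.

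The enolases, which form phosphoenolpyruvate, moved in opposite directions. ENO1, the ubiquitous form, was at 399 and 421 FPKM in shDUSP23 and 747 and 809 FPKM in shMock (log2 fold change -0.92, SE 0.12; limma, adjusted p = 0.000516). ENO2, the neuronal form, was at 42.6 and 47.7 FPKM in shDUSP23 and 24.1 and 24.9 FPKM in shMock (log2 fold change 0.87, SE 0.13; limma, adjusted p = 0.00105). ENO3, the muscle form, at chr17:4950190-4957131 on the plus strand, was at 86.5 and 75.9 FPKM in shDUSP23 and 22.7 and 22.2 FPKM in shMock (log2 fold change 1.83, SE 0.13; limma, adjusted p = 4.2e-05). None of the 3 overlapped between the groups. ENO1 lost its call under quantile normalization (limma, log2 fold change -0.078, adjusted p = 0.523, with adjusted p from 1.18e-05 to 0.523 over all alternatives). ENO2 overlaps LRRC23 on the same strand, which was at 9.51 and 6.61 FPKM in shDUSP23 and 10.6 and 9.48 FPKM in shMock.

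PKM, pyruvate kinase, makes PKM1 or PKM2 according to which of 2 neighbouring exons of equal length is spliced in, and PKM2 is the form known from proliferating and tumour cells. The exons are shown because the split between them decides which enzyme a transcript encodes. The gene runs 5′ to 3′ on the minus strand, the sequences are from GENCODE release 29 transcripts (GRCh38), and capitals mark the bases at which the 2 exons differ.
PKM1 exon (chr15:72203022-72203188): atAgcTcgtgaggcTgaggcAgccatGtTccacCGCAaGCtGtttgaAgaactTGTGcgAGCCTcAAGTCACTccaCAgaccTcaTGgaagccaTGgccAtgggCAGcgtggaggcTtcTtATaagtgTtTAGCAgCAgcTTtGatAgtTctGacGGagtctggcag
PKM2 exon (chr15:72202454-72202620): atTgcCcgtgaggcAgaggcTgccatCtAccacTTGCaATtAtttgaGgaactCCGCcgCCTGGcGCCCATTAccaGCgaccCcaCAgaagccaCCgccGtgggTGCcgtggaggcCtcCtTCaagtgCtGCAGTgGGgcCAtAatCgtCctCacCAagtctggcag

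Both exons are 167 bases long, and 105 of these, or 62.9%, are identical. PKM as a whole did not pass the test, with 682 and 744 FPKM in shDUSP23 and 857 and 819 FPKM in shMock (log2 fold change -0.23, SE 0.12). Transcripts with the PKM2 exon made up 84.9% and 87.3% of the PKM level in shDUSP23 and 84.6% and 82.8% in shMock. Transcripts with the PKM1 exon made up 1.06% and 0.813% in shDUSP23 and 1.09% and 0.911% in shMock, which overlapped. The rest came from transcripts with neither exon.

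Both lactate dehydrogenase genes fell, LDHB by the larger fitted value, although the difference between the 2 falls was not tested in the fit. LDHA encodes the subunit of muscle type, which favours lactate formation, and was at 651 and 608 FPKM in shDUSP23 and 1262 and 1250.1 FPKM in shMock (log2 fold change -0.997, SE 0.12; limma, adjusted p = 0.000391). LDHB, the heart-type subunit, lies at chr12:21635342-21657971 on the minus strand. LDHB was at 239.7 and 245 FPKM in shDUSP23 and 859 and 1121 FPKM in shMock (log2 fold change -2.02, SE 0.15; limma, adjusted p = 4.97e-05), with shDUSP23 below shMock in every library. LDHA lost its call under quantile normalization (limma, log2 fold change -0.14, adjusted p = 0.269, with adjusted p from 3.4e-05 to 0.269 over all alternatives), while LDHB kept its own at -1.39. By the group means LDHB was 4.09 times lower in shDUSP23. The table gave LDHB-201 and LDHB-211 the same value in each library, so the split between these transcripts carries no measurement. The processed copy LDHAP4 was at 3.12 and 3.04 FPKM in shDUSP23 and 5.79 and 7.30 FPKM in shMock.

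The lactate transporters diverged. SLC16A3 encodes MCT4, known as the exporter of lactate in strongly glycolytic cells, and lies at chr17:82217934-82240086 on the plus strand. SLC16A3 was at 38.8 and 52.5 FPKM in shDUSP23 and 12.1 and 16.3 FPKM in shMock, with no overlap (log2 fold change 1.65, SE 0.19; limma, adjusted p = 0.00036). SLC16A1 encodes MCT1, which carries lactate either way, and was at 13.02 and 13.6 FPKM in shDUSP23 and 17.3 and 18.4 FPKM in shMock. Its log2 fold change of -0.41 (SE 0.14) passed only narrowly (limma, adjusted p = 0.048). SLC16A1 lost the call without any one of the 4 libraries, at log2 fold changes of -0.45 to -0.36 (limma, adjusted p = 0.0626 to 0.235), and also with equal sums, without a filter, without the trend, after GC correction and among protein-coding transcripts alone (limma, adjusted p from 0.0369 to 0.701 over all alternatives). BSG, the chaperone that carries MCT1 and MCT4 to the membrane, fell to 63.1 and 75.5 FPKM in shDUSP23, against 147 and 154 FPKM in shMock (log2 fold change -1.12, SE 0.13), and EMB, another such partner, fell by 0.79 on the log2 scale (SE 0.21).

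At the entry of pyruvate into the mitochondrial cycle, both E1 subunits of pyruvate dehydrogenase fell. PDHA1, the alpha subunit that the kinases phosphorylate, was at 61.8 and 57.4 FPKM in shDUSP23 and 121 and 118 FPKM in shMock (log2 fold change -1.003, SE 0.11; limma, adjusted p = 0.000293). PDHB, the beta subunit, at chr3:58427630-58433857 on the minus strand, was at 23.8 and 23.8 FPKM in shDUSP23 and 72.95 and 84.8 FPKM in shMock (log2 fold change -1.70, SE 0.13; limma, adjusted p = 5.64e-05). No shDUSP23 library reached any shMock library in either gene. Of 9 further genes of pyruvate entry and oxidation 1 was higher (11.1%, against 23.1% of all tested genes) and 2 were lower (22.2%, the same share as of all tested genes). DLAT and DLD, the E2 and E3 components of the complex, were those that fell (log2 fold changes -0.60, SE 0.15, and -0.57, SE 0.13). PDP1, the phosphatase that switches the complex back on, rose to 11.8 and 12.2 FPKM in shDUSP23, against 4.02 and 3.89 FPKM in shMock (log2 fold change 1.49, SE 0.18).

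The pyruvate dehydrogenase kinases did not move together. PDK2 was at 20.8 and 22.5 FPKM in shDUSP23 and 6.78 and 6.05 FPKM in shMock (log2 fold change 1.68, SE 0.16; limma, adjusted p = 0.000147). PDK1 was at 2.56 and 1.46 FPKM in shDUSP23 and 3.93 and 3.998 FPKM in shMock (log2 fold change -0.87, SE 0.29; limma, adjusted p = 0.0367). PDK3 was at 2.34 and 2.69 FPKM in shDUSP23 and 5.80 and 5.498 FPKM in shMock (log2 fold change -1.03, SE 0.22; limma, adjusted p = 0.00592). PDK2 was the higher in shDUSP23 and PDK1 and PDK3 the lower, each without overlap. PDK1 lost its call without shDUSP23 replicate 2 (limma, log2 fold change -0.55, adjusted p = 0.111), and PDK1 and PDK3 lost theirs without shMock replicate 1 (log2 fold changes -0.88 and -0.99, limma adjusted p = 0.164 and 0.0661) and without shMock replicate 2 (log2 fold changes -0.86 and -1.07, limma adjusted p = 0.185 and 0.0577). Over all alternatives the limma adjusted p ran from 0.00342 to 0.185 for PDK1 and from 0.00314 to 0.0661 for PDK3. PDK4, the kinase induced in fasting, is outside the list but was the most abundant of the 4 kinases in shMock, and it fell to 21.6 and 19.2 FPKM in shDUSP23, against 78.8 and 72.9 FPKM in shMock (log2 fold change -1.87, SE 0.13). With PDK4 counted, the kinases summed to 47.3 and 45.8 FPKM in shDUSP23 and 95.3 and 88.5 FPKM in shMock. PDK2 then made up 44.0% and 49.0% of that sum in shDUSP23 and 7.11% and 6.84% in shMock.

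The make-up of each step was also read as the share of each isoenzyme in the summed FPKM of the step, which scaling a library by 1 factor leaves as it is. HK2 made up 23.8% ± 1.88 of the hexokinase level in shDUSP23 and 3.65% ± 0.239 in shMock (SD, n = 2 each here and below), of sums that averaged 77.3 FPKM in shDUSP23 and 33.0 FPKM in shMock. SLC2A3 made up 73.0% ± 5.05 of the 2 transporters in shDUSP23 and 50.6% ± 2.69 in shMock, of mean sums of 174 FPKM in shDUSP23 and 40.1 FPKM in shMock. Among protein-coding transcripts alone the SLC2A3 share still differed in the same direction, by 14.3 percentage points instead of 22.4. ENO1 made up 76.4% ± 1.26 of enolase in shDUSP23 and 94.3% ± 0.281 in shMock, while ENO3 made up 15.2% ± 1.74 in shDUSP23 and 2.72% ± 0.192 in shMock. The enolase sum averaged 536 FPKM in shDUSP23 and 825 FPKM in shMock at the deposited scale, although ENO2 and ENO3 rose. Unlike the shares, the sums given here depend on the scaling of the libraries. Under quantile normalization ENO1 had a log2 fold change of -0.078, ENO2 one of 0.91 and ENO3 one of 1.89. The enolase sum was not recomputed under that scaling.
LDHA made up 72.2% ± 1.27 of lactate dehydrogenase in shDUSP23 and 56.1% ± 4.796 in shMock, of mean sums of 871 FPKM in shDUSP23 and 2246 FPKM in shMock. SLC16A3 made up 77.1% ± 3.18 of the 2 lactate transporters in shDUSP23 and 44.2% ± 4.12 in shMock, of mean sums of 59.0 FPKM in shDUSP23 and 32.1 FPKM in shMock. PFKM made up 6.21% ± 1.21 of phosphofructokinase in shDUSP23 and 13.3% ± 0.626 in shMock, and the sum of that step averaged 119 FPKM in shDUSP23 and 127 FPKM in shMock. The shares of PGM1, PGM2 and PFKL overlapped between the groups. All other shares were separate, including that of ALDOA, at 99.2% in shDUSP23 and 98.9% in shMock. The ALDOA difference of 0.327 percentage points became 0.11 without shMock replicate 1 and 0.545 without shMock replicate 2. An exact permutation test over 2 libraries against 2 cannot go below p = 0.333 (two-sided), the value that each separate share had, so that test could not pass, and no other test of the shares was run. They were 22 shares in all, and the shares of a step are not independent.

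**Figure D3:**
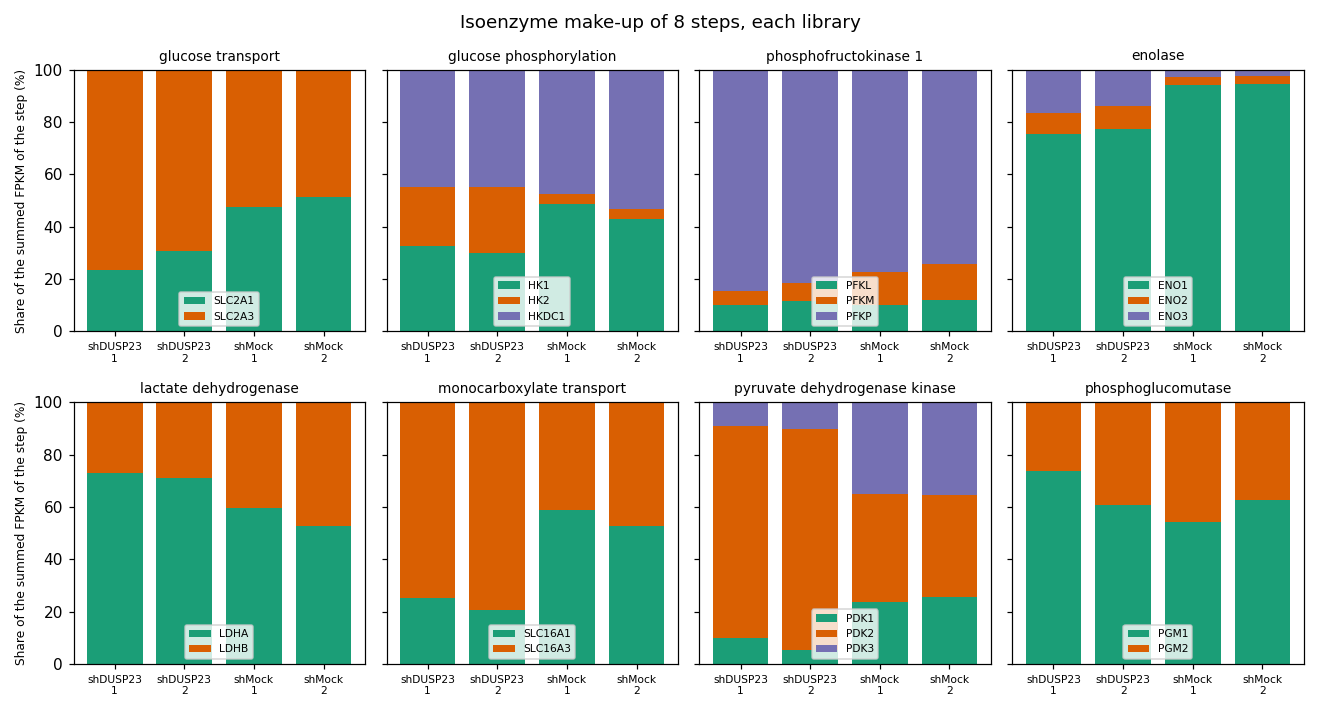
Share of each isoenzyme in the summed FPKM of its step (%), in each library, for 8 steps with more than 1 gene on the list, with the shDUSP23 libraries left of the shMock libraries. The HK2, SLC2A3, ENO3, SLC16A3 and PDK2 shares are larger in both shDUSP23 libraries, while the PGM1, PGM2 and PFKL shares overlap; PDK4 is not in the kinase panel.

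The table listed 198 transcripts of the members, of which 147 passed the filter. In a fit of 37453 transcripts, 8 of these 147 were higher and 10 lower in shDUSP23. The backgrounds over all tested transcripts were 1.7% higher, 2.45% lower and 4.15% called in either direction. Of the 18, none with a mean of at least 5 FPKM moved against the sum of its gene, and those below that mean were not checked for this. These calls are fragile: without any one library, with the replicate number as a block or without the trend in limma, 0 transcripts of the members passed. HK2-201, the leading transcript of HK2, was at 16.5 and 20.4 FPKM in shDUSP23 and 0.652 and 0.556 FPKM in shMock, while HK2-202 was listed at 0 in both shDUSP23 libraries and at 0.49 and 0.71 FPKM in shMock. The rise of HK2 was thus carried by HK2-201. PFKFB3-203 was at 19.9 and 24.5 FPKM in shDUSP23 and 7.71 and 5.67 FPKM in shMock, and made up 83.2% of PFKFB3 in shDUSP23 and 51.4% in shMock by group means. SLC2A1-208, annotated as a target of nonsense-mediated decay, made up 56.4% of SLC2A1 in shDUSP23 and 49.6% in shMock. GAPDH-211 was at 0 and 0.719 FPKM in shDUSP23 and 19.7 and 32.4 FPKM in shMock, small beside GAPDH as a whole. The leading transcript of 26 members made up at least 50% of the gene in shMock.

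Other genes around the pathway were read from 11 lists of 125 genes, of which 97 were tested, 13 were higher and 38 lower (24 and 25 with every library scaled to an equal sum). These are 13.4% and 39.2% of the 97, against 23.1% and 22.2% of all tested genes, and the shares of the lists below are to be read against the same background. In the list of 20 genes of the tricarboxylic acid cycle 0 were higher and 11, or 55.0%, were lower, with a median log2 fold change of -0.61 that became -0.28 with equal sums. The list holds 3 cytosolic counterparts, ACO1, IDH1 and MDH1, and all 3 were among the lower genes. Without them 8 of 17, or 47.1%, were lower, with a median of -0.27. SDHD, a membrane subunit of succinate dehydrogenase in the cycle itself, was at 35.8 and 32.99 FPKM in shDUSP23 and 71.1 and 81.2 FPKM in shMock (log2 fold change -1.13, SE 0.13). IDH1, which makes NADPH in the cytosol, was at 73.8 and 74.2 FPKM in shDUSP23 and 185 and 190.1 FPKM in shMock. Of the 5 genes of the serine branch, which leaves glycolysis at 3-phosphoglycerate, 4 (80.0%) were lower and 0 higher, among them PSAT1 at 33.3 and 30.7 FPKM in shDUSP23 and 82.9 and 83.1 FPKM in shMock. The glycogen list had 2 higher (15.4%) and 6 lower (46.2%) of 13, and its median of -0.26 became 0.07 with equal sums. PYGB, the brain-type glycogen phosphorylase, fell by 0.97 on the log2 scale (SE 0.11), and GAA, the lysosomal glucosidase that breaks down glycogen, rose by 1.317 (SE 0.14). The list of other hexoses and hexosamine had 2 higher (11.8%) and 6 lower (35.3%) of 17, a median of -0.26 that became 0.06 with equal sums, and GALK1, the galactokinase, at 7.17 and 5.52 FPKM in shDUSP23 and 20.9 and 21.6 FPKM in shMock.

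Of other genes of the SLC2A transporter family, SLC2A6 (log2 fold change 0.85, SE 0.17) and SLC2A13, which encodes a transporter of myo-inositol (log2 fold change 0.42, SE 0.13), were higher and SLC2A8 was not called. PCK2, the mitochondrial enzyme that makes phosphoenolpyruvate, was the 1 gene of gluconeogenesis tested, at 27.6 and 31.1 FPKM in shDUSP23 and 13.6 and 13.05 FPKM in shMock (log2 fold change 1.11, SE 0.14). ADPGK, the ADP-dependent glucokinase, fell to 40.5 and 44.2 FPKM in shDUSP23, against 54.3 and 57.3 FPKM in shMock (log2 fold change -0.39, SE 0.12), unlike the hexokinases of the list. In the list of regulators 5 were higher (31.2%, against 23.1% of all tested genes) and 2 lower (12.5%, against 22.2%) of 16. The 2 lower genes were HIF1A and EGLN1 (log2 fold changes -0.41, SE 0.11, and -0.62, SE 0.15). ARRDC4, a relative of TXNIP that restrains glucose uptake, was at 17.8 and 16.2 FPKM in shDUSP23 and 6.43 and 4.47 FPKM in shMock, and EGLN3, a prolyl hydroxylase that acts on hypoxia-inducible factors, was at 4.54 and 5.43 FPKM in shDUSP23 and 1.83 and 1.93 FPKM in shMock (log2 fold changes 1.57, SE 0.20, and 1.20, SE 0.24). The shuttles that carry reducing equivalents into mitochondria had 0 higher and 3 lower (37.5%) of 8, and their median of -0.40 became -0.08 with equal sums. The median of all tested genes was 0.34 with equal sums.

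FPKM over the whole table summed to 438604 and 446982 in shDUSP23, below 540163 and 578361 in shMock, and the members took 1.101% and 1.15% of this sum in shDUSP23 and 1.397% and 1.41% in shMock. Transcripts of the mitochondrial chromosome took 8.12% and 7.97% of FPKM in shDUSP23 and 12.3% and 13.1% in shMock, and the part of this difference in the members' changes was not tested. With each library scaled to an equal sum the median over the members became 0.20 and that over all tested genes 0.34 (log2 fold change). The members then divided into 13 higher and 10 lower: PGM1 and PFKP became higher (log2 fold changes 0.53 and 0.37), and GPI, PGAM1, SLC16A1 and PDK1 were no longer called. At that scaling 6972 of all tested genes were called, against 6202 at the deposited scale. How many of the 6972 were higher was not counted, so the 13 and 10 have no background by direction. Under quantile normalization, which forces every library onto 1 distribution, GAPDH turned to 0.10 on the log2 scale and was not called, PKM and ALDOA became higher (0.62 and 0.44), and TPI1, ENO1 and LDHA lost their calls. Correction for GC content and length made PKM (-0.42), ALDOA (-0.27) and PFKL (-0.50) lower and BPGM (0.51) higher. PKM and ALDOA thus had opposite signs under quantile normalization and under the GC and length correction. HK2, SLC2A1, SLC2A3, HKDC1, G6PC3, PFKFB3, ENO2, ENO3, SLC16A3 and PDK2 stayed higher, and PFKM, PGK1, LDHB, PDHA1 and PDHB stayed lower, under all alternatives run.

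**Figure D4:**
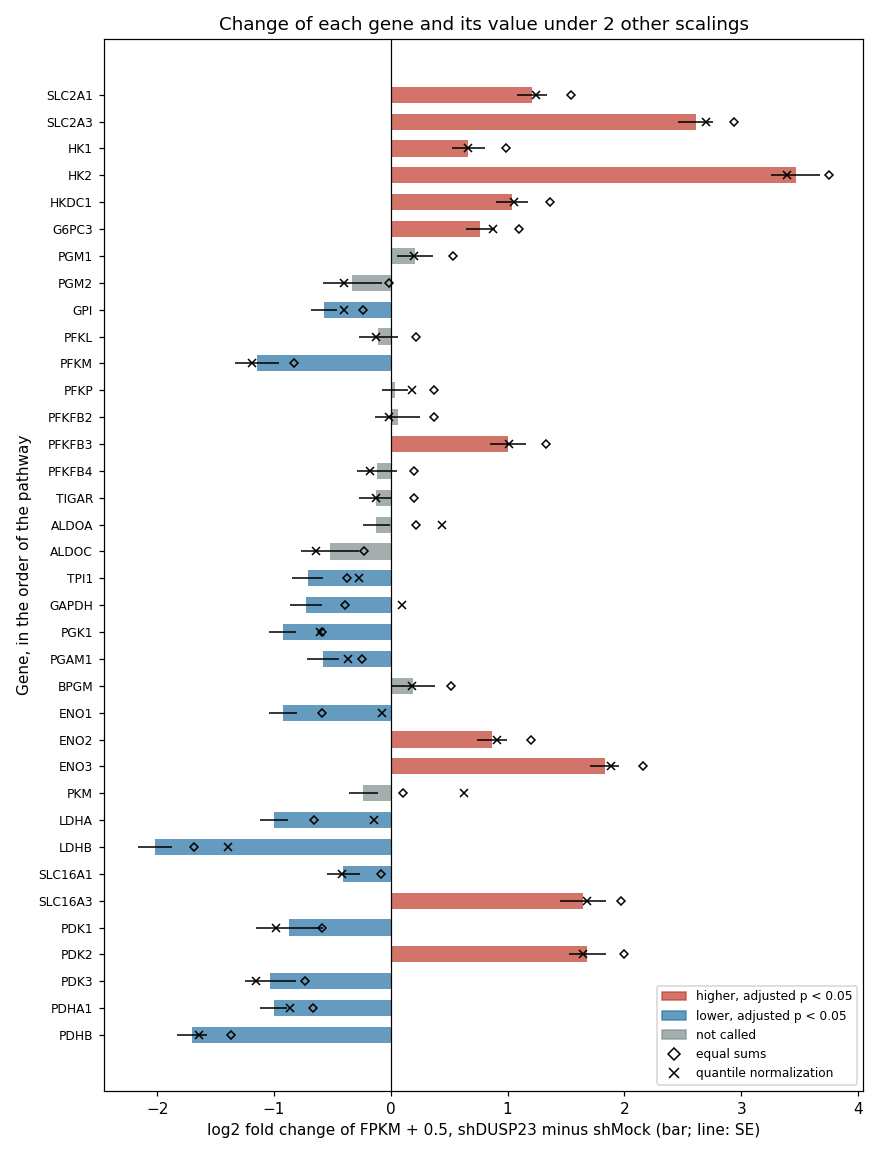
Log2 fold change of FPKM + 0.5, shDUSP23 minus shMock (bars, with SE as lines), for the 36 genes in pathway order, coloured by call, with the values after scaling to equal sums (diamonds) and after quantile normalization (crosses). The glucose transporters, the hexokinases, ENO2, ENO3, SLC16A3 and PDK2 keep their rise under each, whereas the abundant genes from ALDOA to LDHA move toward or past 0.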

How the data were processed

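RNA from 4 libraries of A549 cell clusters, 2 of shDUSP23 and 2 of shMock, was compared. The authors deposited FPKM values, 1 per Ensembl transcript and library, for 56389 transcripts, with no counts. STAR 2.7.1a, DESeq2 1.32.0 and GRCh38 are named in the submitters' processing notes, and the sources used here do not give the quantifier, its annotation or the strandedness. Values were summed over the transcripts of a gene. Total fragments were estimated from the steps of low FPKM in genes with 1 transcript, where 82.5% to 84.9% of values up to 50 fragments were whole within 0.1 fragment. Multiples of a true total also give whole fragments, so the smallest fitting total was taken, and it could not be checked against counts. No count model was run, because FPKM of genes with several transcripts need not be whole fragments.

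Using limma 3.58.1 (eBayes with trend) in R 4.3.3, log2(FPKM + 0.5) was tested for genes averaging at least 1 FPKM, without rescaling or covariates, two-sided, with Benjamini-Hochberg adjustment over all 13691 genes and a threshold of 0.05. Fold changes are shDUSP23 minus shMock. Transcripts were tested in the same way. Tables were made with Python 3.11.15 (pandas 2.3.3, numpy 2.4.6) and figures with matplotlib 3.10.9. The fit was tested on simulated data. GENCODE release 29, in which 93.6% of the transcripts were found, gave lengths, exons and GC content, and RefSeq the bases before gene starts. The members, the lists and the tests were chosen with earlier results of these data known. Named are all members, DUSP23, up to 3 tested genes with the smallest p of each further list, and the leading transcripts. HK2-202, GAPDH-211, LDHB-211, HIF1A, EGLN1 and the overlapping and copied genes were named after their values were seen. The 17 alternatives were other pseudocounts, filters, scalings and moderation, a replicate block, a GC and length correction with and without it, protein-coding transcripts alone, and leaving out each library.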

Additional observations from a re-analysis of the deposited data

How the results depend on the processing

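All tested genes called numbered 3464 to 6442 when 1 library was left out, with both low values, 4038 and 3464, without a shMock library. Counts of member genes stayed within 1.5 times under every alternative, at 10 to 13 higher and 10 to 17 lower. Transcripts of the members, 8 higher and 10 lower, were the least firm: without a filter 3 were higher and 4 lower, with a mean of at least 5 FPKM 13 and 23, under quantile normalization 8 and 6, and 0 in either direction without trend, with the replicate block, with the GC and length correction together with the block, and without any 1 library (0 to 0). At an unadjusted p under 0.05 limma gave 18 to 26 higher and 22 to 41 lower under these settings that had 0, and no other tool was run on transcripts. The other 97 genes divided into 24 higher and 25 lower with equal sums, a setting that called 6972 of all tested genes. GAPDH reversed to 0.095 on the log2 scale under quantile normalization; the cause was not tested. With protein-coding transcripts alone the ENO1 share differed by -14.7 percentage points and the SLC2A3 share by 14.3. The replicate block changed no call of a member gene (11 higher and 14 lower) and called 6707 of all genes. Deviations of same-numbered libraries correlated at 0.053 over 13691 genes, so the numbers were not taken to pair the libraries. With 2 libraries a group, the exact permutation test of the isoenzyme shares could not pass.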
